A study of Mus musculus with 43 samples.

Results

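Fc receptors bind the constant tail of antibodies, and the family described here was chosen by gene name, 8 of the 55416 genes counted in each of 43 RNA-sequencing libraries of mouse cortical glia. It holds the activating receptors for immunoglobulin G Fcgr1, Fcgr3 and Fcgr4, the inhibitory receptor Fcgr2b, the shared signalling chain Fcer1g, the kinase Syk, the lipid phosphatase Inpp5d (SHIP1) and the neonatal Fc receptor Fcgrt. The libraries came from astrocytes, microglia, oligodendrocyte precursor cells (OPCs) and oligodendrocytes that were immunopanned one after another from the cerebral cortex of 12 adult mice at 3 months of age, in 6 numbered littermate pairs. Microglia were caught with anti-CD45, which other immune cells carry as well. The Rag2-/- mice were homozygous for a germline deletion in Rag2 on a C57BL/6J background and lack mature B and T cells, so that they make no antibody. Their control littermates were immunocompetent and were Rag2+/- in pairs 1, 2, 3 and 5 and Rag2+/+ in pairs 4 and 6. Pairs 2 and 5 were female, pairs 1, 3 and 4 were male, and pair 6 had a male control and a female Rag2-/- mouse. There were 6 control and 6 Rag2-/- libraries of microglia and of astrocytes, 6 and 5 of OPCs (without the Rag2-/- mouse of pair 5), and 4 and 4 of oligodendrocytes (pairs 1, 3, 5 and 6).

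Activating Fcγ receptors sit in the membrane beside a dimer of Fcer1g, whose tail carries an immunoreceptor tyrosine-based activation motif (ITAM). When antibody-coated material gathers the receptors, Src-family kinases phosphorylate the paired tyrosines of the ITAM, Syk docks there, and phagocytosis and inflammatory signalling follow. Fcgr2b carries an inhibitory motif (ITIM) instead, recruits Inpp5d, and so dampens the signal. Fcgrt works apart from this pathway: inside acidic endosomes it binds immunoglobulin G and albumin, with β2-microglobulin (B2m) as its partner chain, and carries them back to the cell surface. In the brain, microglia are the best-known carriers of Fcγ receptors.

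The 2 motifs that separate activation from inhibition are shown as coding sequence, 5′ to 3′, with the tyrosine codons in capitals and every other codon in lower case. The Fcgr2b ITIM was 18 bases at chr1:170788640-170788657 of GRCm39, minus strand, and made codons 270 to 275 of the transcript read. The Fcer1g ITAM was 45 bases, codons 65 to 79, and lay between chr1:171057458-171057641 of GRCm39, minus strand, with an intron inside it. The first sequence has 1 tyrosine codon and the second has 2.
Fcgr2b ITIM: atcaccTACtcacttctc
Fcer1g ITAM: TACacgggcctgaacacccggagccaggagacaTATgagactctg

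Of the 8 genes, 5 lie on chromosome 1. In GRCm39, Fcgr2b (ENSMUSG00000026656) is at chr1:170786186-170804177, Fcgr4 (ENSMUSG00000059089) at chr1:170846466-170857330, Fcgr3 (ENSMUSG00000059498) at chr1:170878738-170893549 and Fcer1g (ENSMUSG00000058715) at chr1:171057141-171062219, so that the 3 receptor genes and the signalling chain are neighbours. Inpp5d (ENSMUSG00000026288) is on the same chromosome at chr1:87547989-87648230. Fcgr1 (ENSMUSG00000015947) is at chr3:96190225-96201338, Fcgrt (ENSMUSG00000003420) at chr7:44742412-44756819 and Syk (ENSMUSG00000021457) at chr13:52736696-52802828. Fcgr2b and Fcgr3 are close relatives, and 139 windows of 50 bases of the Fcgr3 transcript read, 9.29% of its windows, had an exact copy within Fcgr2b. Of the 3354 windows of Fcgr2b, 437 (13.03%) had an exact copy elsewhere in the genome, within the genes Fcgr3, Inpp5d and Syk or at other places. The transcripts read of Inpp5d and Syk had no window with such a copy, so those copies lie outside them. Read pairs with both reads inside such stretches may not be assigned to a single place, and the number of such pairs was not measured. The levels of Fcgr2b and Fcgr3 carry that uncertainty. Fcgr2b also shares 6.06% of its exonic bases with the gene Gm38204 on the other strand, and Inpp5d shares 1.52% with another gene.

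Values are counts scaled to the library's total count on genes, in the usual unit CPM, and levels of the 8 genes are compared with each other only after division by the exonic length in kilobases. Libraries held between 6499417 and 23118497 counts on genes, and 3 counts corresponded to between 0.13 and 0.462 CPM. Mitochondrially encoded genes took 6.76% to 11.7% of the counts in microglia, 22.5% to 45.1% in astrocytes, 22.4% to 36.7% in OPCs and 45.8% to 60.1% in oligodendrocytes, which lowers the CPM of all other genes in the same library. Rag2 itself had 0 to 4 counts in control libraries and could not check the labels. Its neighbour Iftap had 14 to 208 counts in control libraries and 0 to 2 in Rag2-/- libraries. In bulk libraries, fewer cells of a type and less RNA per cell cannot be told apart. The libraries of 1 cell type were sequenced together, so that cell type and sequencing run cannot be told apart either.

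In microglia all 8 genes were detected in every library. Per kilobase of exon, the signalling chain Fcer1g stood at 529 ± 73.5 CPM (SD, n = 12), followed by Fcgr3 at 89.3 ± 12.2 and Inpp5d at 54.7 ± 8.15. Syk (22.1 ± 3.98) and Fcgr2b (22 ± 4.78) followed at levels within each other's spread, and Fcgr1 reached 16.7 ± 2.40. The neonatal receptor Fcgrt came to 8.95 ± 1.59 and Fcgr4 to 3.30 ± 1.07 CPM per kilobase. The mRNA of the common chain therefore exceeded that of each receptor that uses it, and among the activating receptors the order was Fcgr3, Fcgr1, Fcgr4.

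**Figure D1:**
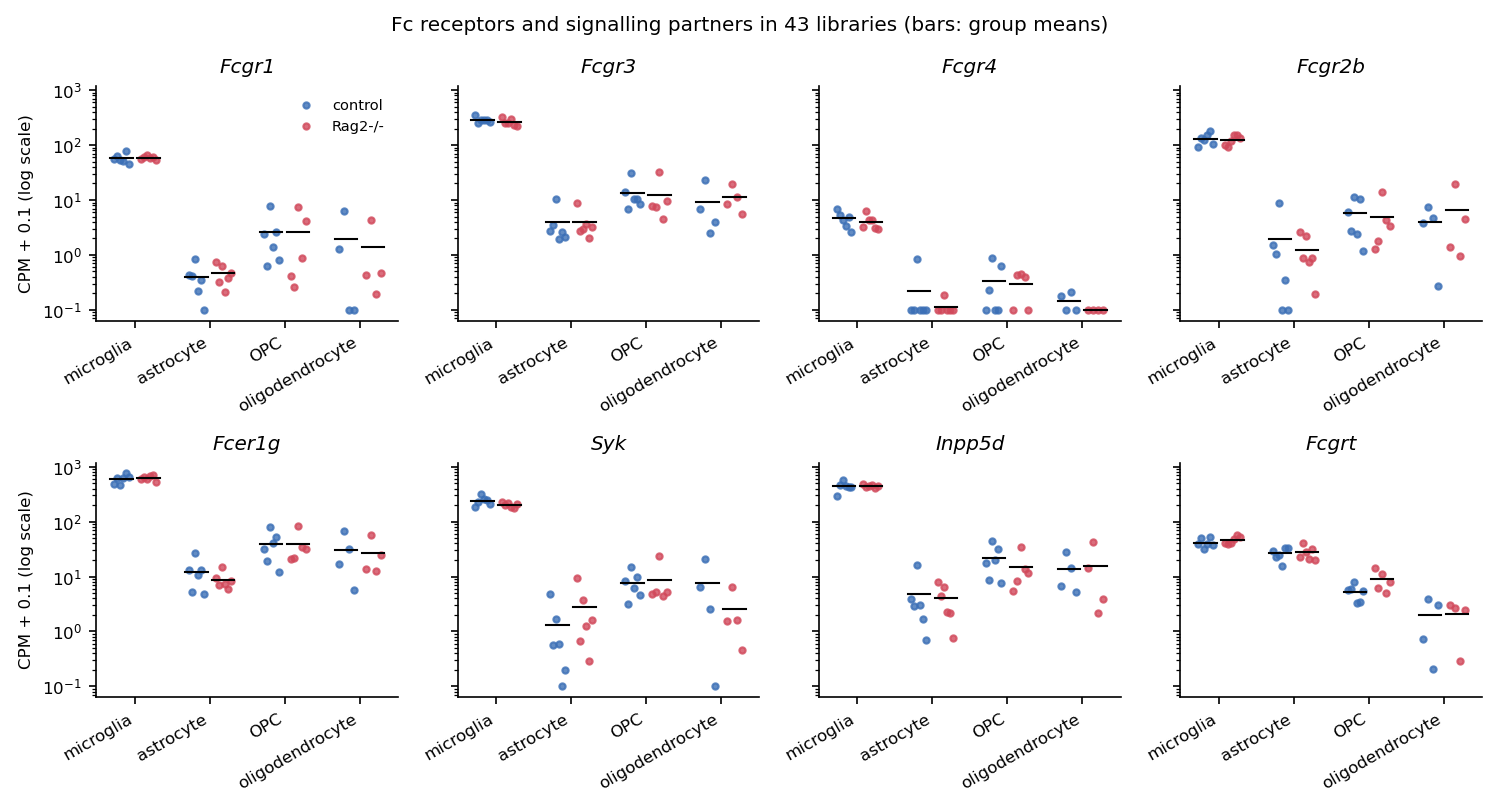
Level of each gene in every library, as CPM + 0.1 on a log scale (a point at 0.1 is a library with 0 counts), by cell type, with control libraries in blue, Rag2-/- libraries in red and black bars at the group means. For 7 of the 8 genes the microglia libraries lie far above all others, while the Fcgrt values of astrocytes (15.5 to 41.0 CPM) overlap those of microglia (32.1 to 57.6 CPM).

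Whether glia of mice without antibody keep a different Fc receptor repertoire is the question of the comparison by genotype. In microglia the levels of the activating receptors overlapped between the genotypes. The high-affinity receptor Fcgr1 ranged from 44.6 to 77.4 CPM in controls (median 54.7) and from 53.3 to 66.9 CPM in Rag2-/- mice (median 59.6). The lowest and the highest library were both controls, and the Rag2-/- values lay inside the control range. Fcgr3, the most abundant of the activating receptors, ranged from 253 to 352 CPM in controls (median 282) and from 218 to 324 CPM in Rag2-/- mice (median 254). The groups overlapped, although the Rag2-/- library was the lower of its pair in 5 of 6 pairs. Fcgr4 was the rarest member and had 27 to 58 counts per microglia library, with 2.55 to 6.77 CPM in controls (median 4.56) and 2.86 to 6.24 CPM in Rag2-/- mice (median 3.64).

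The inhibitory receptor Fcgr2b ranged from 92.0 to 179 CPM in control microglia (median 128) and from 93.6 to 155 CPM in Rag2-/- microglia (median 126). Fcer1g ranged from 472 to 761 CPM in controls (median 623) and from 525 to 704 CPM in Rag2-/- mice (median 631). Inpp5d ranged from 289.9 to 579 CPM in controls (median 440.2) and from 409 to 493 CPM in Rag2-/- mice (median 443). For all 3 genes the Rag2-/- values lay within the control range. Syk ranged from 181 to 321 CPM in controls (median 237) and from 175 to 223 CPM in Rag2-/- mice (median 207). Its Rag2-/- level was below that of the control in 5 of 6 pairs, and the exception was pair 1. Fcgrt ranged from 32.1 to 52.5 CPM in controls (median 38.8) and from 39.1 to 57.6 CPM in Rag2-/- mice (median 44.4), and was above the control in 5 of 6 pairs.

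None of the 8 genes was called in microglia by edgeR's quasi-likelihood test with terms for sex and genotype at an adjusted p (Benjamini-Hochberg over all genes tested) under 0.05, where 0.00667% of the 15003 genes tested were called. None had an unadjusted p under 0.05 either, where 2.91% of all genes tested did, and DESeq2 called 0 of the 8. With the littermate pair as a block, Syk alone had an unadjusted p under 0.05, as did 4.78% of all genes (log2 difference -0.26, 95% confidence interval -0.50 to -0.02, edgeR adjusted p = 0.9734). The log2 differences of Rag2-/- over control ran from -0.20 to 0.14 and their median of -0.0047 was next to that of all genes, -0.0056. Syk had a log2 difference of -0.20 (SE 0.11, 95% confidence interval -0.44 to 0.03, edgeR adjusted p = 0.9992). The intervals of Fcer1g (-0.17 to 0.29), Inpp5d (-0.15 to 0.28), Fcgr3 (-0.34 to 0.18), Fcgr1 (-0.22 to 0.32), Fcgr2b (-0.32 to 0.21) and Fcgrt (-0.12 to 0.41) give the largest differences that these libraries leave possible at that confidence. The interval of Fcgr4 was wider, from -0.91 to 0.50. In 0 of the 8 genes were the genotypes free of overlap, where this held for 0.113% of all genes tested.

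**Figure D2:**
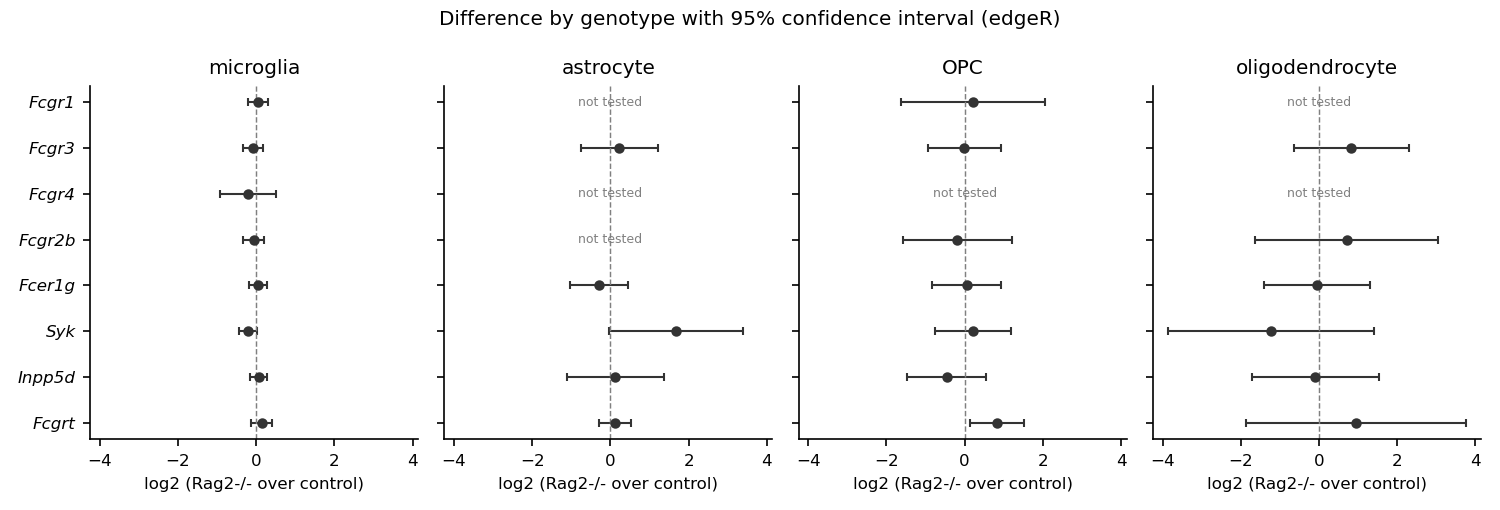
Log2 difference of Rag2-/- over control for each gene and cell type from edgeR, with 95% confidence intervals as bars, and genes below the filter on low counts marked as not tested. In microglia the points lie between -0.20 and 0.14 and in the other cell types the bar of each gene tested is longer than that of the same gene in microglia.

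Ratios between members describe the balance of the pathway within a library. Their choice was made with the members' values known, so they are given as descriptions, without a test. Per kilobase, Fcgr3 over Fcgr2b in microglia was 4.42 ± 1.52 in controls and 4.14 ± 1.21 in Rag2-/- mice (SD, n = 6 each). The sum of the 3 activating receptors over Fcgr2b was 5.34 ± 1.72 and 5.11 ± 1.42. Neither ratio had a common direction over pairs, with Rag2-/- above control in 2 and 3 of 6 pairs. Syk over Inpp5d, the kinase against the phosphatase, was 0.445 ± 0.0454 in controls and 0.367 ± 0.028 in Rag2-/- mice. It was lower in the Rag2-/- mouse of every pair, but by very little in pair 2 (0.388 against 0.387) and pair 6 (0.398 against 0.391). In pairs 1, 3, 4 and 5 the control ratios were 0.504, 0.447, 0.456 and 0.479 and the Rag2-/- ratios 0.365, 0.390, 0.323 and 0.345. The control of pair 2 lay within the range of the Rag2-/- mice, so the groups overlapped, and the other 5 controls lay above it.

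**Figure D3:**
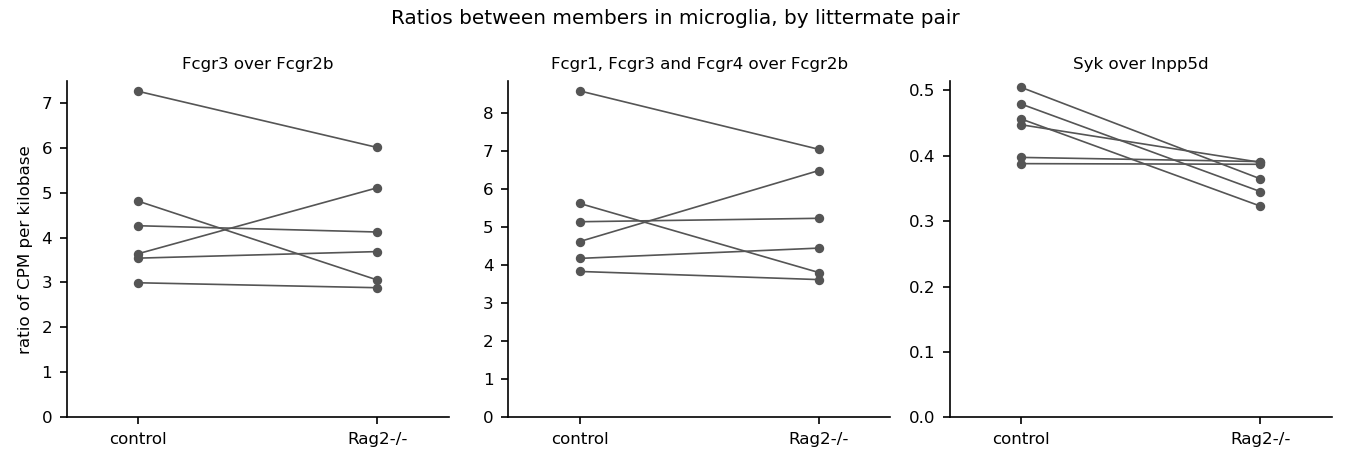
Ratios of CPM per kilobase in microglia for Fcgr3 over Fcgr2b, for the sum of Fcgr1, Fcgr3 and Fcgr4 over Fcgr2b, and for Syk over Inpp5d, with lines joining the control and the Rag2-/- mouse of each of 6 littermate pairs and axes that start at 0. The lines of the first and second ratio cross, and those of the third fall in 4 pairs and are nearly level in the remaining pairs 2 and 6.

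The rest of the pathway was described with lists of genes, of which none was called by genotype in microglia. From each list the 2 genes with the most CPM in microglia are named, a choice that favours long transcripts, and their CPM give no order between genes. Among other Fc receptors and their partner chain, 6 of 16 genes passed the filter on low counts, with a median log2 difference of -0.02. The genes named are B2m, the partner of Fcgrt, at 1887 CPM, and the receptor-like gene Fcrl2 at 1384 CPM. Of receptors and adaptors that signal through Syk, 13 of 18 were tested (median -0.04), among them the integrin chain Itgam at 1337 CPM (log2 difference -0.26, edgeR adjusted p = 0.9992) and the ITAM adaptor Tyrobp at 1260 CPM (-0.03). Kinases and relays downstream of Fc receptors counted 29 of 30 genes tested (median 0.02), among them the scaffold Lcp2 at 739.9 CPM and the adaptor Pik3ap1 at 597 CPM. The phosphoinositide 3-kinase subunit Pik3cg was the only gene of these signalling lists with an unadjusted p under 0.05 (log2 difference 0.20, edgeR adjusted p = 0.9992). Inhibitors of ITAM signalling were all tested, 23 of 23 (median 0.04), among them the receptors Sirpa at 1162 CPM and Cd33 at 579 CPM. Complement and phagocytic partners were also all tested, 20 of 20 (median 0.02), with the C3a receptor C3ar1 at 2447 CPM and the C1q chain C1qb at 2434 CPM. These medians stand beside -0.0056 for all genes.

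The cells were checked against markers of what they could hold. The 10 microglia markers had a median log2 difference of 0.00038 by genotype in microglia, and only Cx3cr1 had an unadjusted p under 0.05 (log2 difference 0.21, edgeR adjusted p = 0.9992). The 10 markers of border macrophages, which carry Fc receptors as well, were present (Mrc1 at 361 CPM and Stab1 at 210.0 CPM) and had a median of -0.05. Of the markers of monocytes and neutrophils 5 of 10 passed the filter (median 0.26, with Csf3r at 363 CPM). All 10 summed to 417 ± 50.6 CPM in female and 378 ± 31.6 CPM in male microglia, so that Csf3r made up most of the sum. Among neuron markers Gad2 had an unadjusted p under 0.05 (log2 difference -1.04, edgeR adjusted p = 0.9992). The 8 neuron markers together summed to 86.2 ± 26.5 CPM in control and 89.0 ± 32.1 CPM in Rag2-/- microglia. The part of these cells in the levels of the 8 genes was not tested.

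Antibody chains were measured in the same libraries, although the receptors described here bind immunoglobulin G, to which Ighm and Ighd do not belong. Ighm, the heavy chain of immunoglobulin M, was at 357 ± 60.3 CPM in control and 347 ± 28.7 CPM in Rag2-/- microglia (n = 6 each), and Ighd was at 14.1 ± 4.14 and 13.95 ± 2.39 CPM. Neither was called by genotype, with log2 differences of -0.03 (SE 0.105) and 0.05 (SE 0.219), and both were counted in mice that cannot assemble an antibody gene. The κ light chain Igkc had 0 to 151 counts in control microglia (5.99 ± 6.74 CPM) and 0 to 1 count in Rag2-/- microglia. The genotype effect in microglia was compared with that in the macroglial types (oligodendrocytes, OPCs and astrocytes together) in a fit of all 43 libraries. Igkc was called in this test but is not counted, since it failed the low-count filter within microglia. Without pair 1, 2, 4 or 5 no gene was called. In the same test, members were counted that passed the low-count filter within every cell type, namely Fcgr3, Fcer1g, Fcgrt, Syk and Inpp5d. None of them was called, with 0.00936% of 21368 genes called. Their log2 differences of effects ran from -0.29 (Fcgr3) to 0.29 (Inpp5d), beside a median of -0.0010 for all genes. Neither DESeq2 nor an unadjusted p under 0.05 picked out any of these. Fcgr1, Fcgr2b and Fcgr4 failed the filter within a macroglial type and are not counted. Ighg1, a heavy chain of immunoglobulin G, had 143 counts in 1 control microglia library and at most 4 in the other microglia libraries. Of the other chains, Ighg2b reached 22, Ighg2c 7, Igha 49, Iglc2 6 and Jchain 6 counts in a microglia library.

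Outside microglia, 7 of the 8 genes were found at a few percent of their microglial level or less. Their mean CPM in astrocytes was 0.558% to 1.69% of the mean in microglia, in OPCs 3.65% to 6.34%, and in oligodendrocytes 0.563% to 4.66%. A few libraries carried some of these means. By the median library, Fcgr4 stood at 0% in astrocytes and in oligodendrocytes, and Fcgr1 at 0.611% in oligodendrocytes. The 10 microglia markers gave similar shares, with medians of 1.42% in astrocytes, 5.35% in OPCs and 3.98% in oligodendrocytes. The transcription factor Sall1 was the exception among these markers, at 24.2%, 21.7% and 15%. Fcgrt was the exception among the members, at 60.8% of its microglial mean in astrocytes and 15.5% in OPCs, and at 4.39% in oligodendrocytes. With mitochondrially encoded genes taken out of the total, the shares in oligodendrocytes were higher, at 8.68% for Fcer1g, 7.52% for Fcgr2b, 8.52% for Fcgrt and 29.0% for Sall1.

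**Figure D4:**
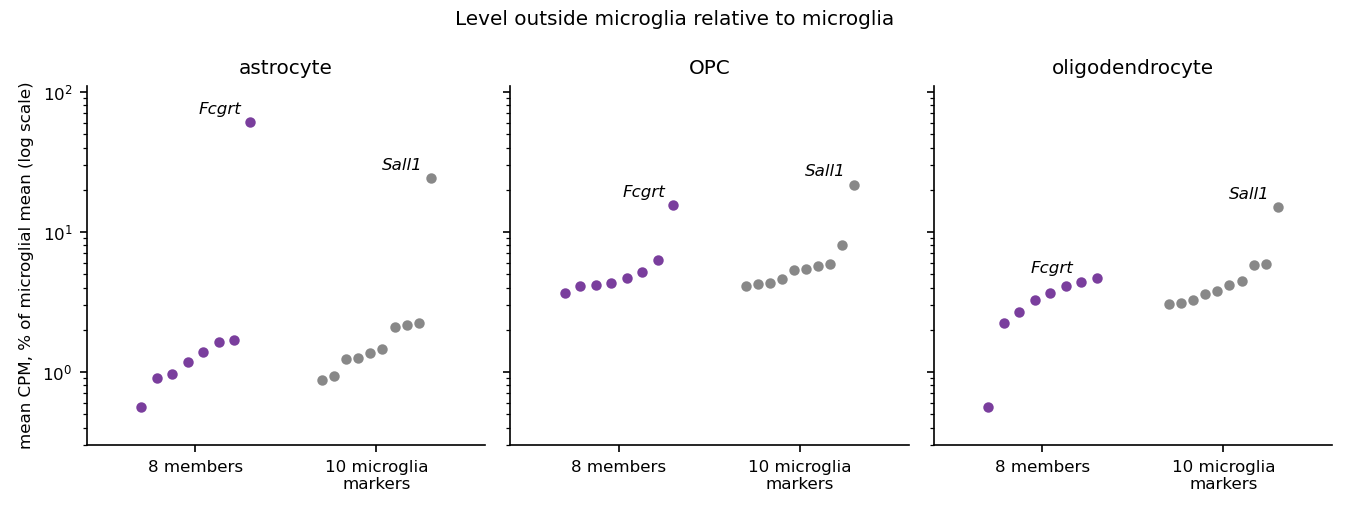
Mean CPM of each of the 8 members (purple) and of 10 microglia markers (grey) in astrocytes, OPCs and oligodendrocytes, in percent of the mean in microglia on a log scale. In astrocytes Fcgrt stands at 60.8% and every other member between 0.558% (Fcgr1) and 1.69% (Fcer1g), beside a median of 1.42% for the microglia markers. The mean of Fcgr4 in astrocytes includes 10 of 12 libraries with 0 counts.

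Fcer1g, the most abundant of these trace genes, ranged from 4.61 to 26.8 CPM in astrocytes (median 8.75), from 11.8 to 83.8 CPM in OPCs (median 31.98) and from 5.68 to 67.2 CPM in oligodendrocytes (median 20.8). Each range lay below the lowest microglia library at 472 CPM. Fcgr3 ranged from 1.87 to 10.5 CPM in astrocytes, from 4.33 to 31.7 CPM in OPCs and from 2.44 to 22.6 CPM in oligodendrocytes. Fcgr1 had at most 7 counts in any astrocyte library. Fcgr4 had 0 counts in 10 of 12 astrocyte, 5 of 11 OPC and 6 of 8 oligodendrocyte libraries and at most 8 counts in the rest, so that its level there was near or below what 3 counts can show.

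Microglia stood above the other types in a joint edgeR fit of all 43 libraries. Counted here are the members that passed the low-count filter within the other type as well. Fcgr1 and Fcgr4 failed it within oligodendrocytes, Fcgr4 failed it within OPCs, and Fcgr1, Fcgr2b and Fcgr4 failed it within astrocytes. Those were tested only because of their level in other cell types, so that their calls against microglia were fixed by the filter and are left out. Against oligodendrocytes the 6 members left were all called higher, where 34.8% of the 21368 genes tested were. Their log2 differences ran from 3.60 (SE 0.38) for Fcer1g to 5.15 (SE 0.58) for Syk, beside a median of 0.088 for all genes. Against OPCs the 7 members left were all called higher, with 30.8% of all genes. They ran from 2.84 (SE 0.28) for Fcgrt to 5.04 (SE 0.50) for Syk, beside -0.18 for all genes. Against astrocytes 5 members were left, and all but Fcgrt were called higher, with 33.5% of all genes. The log2 differences of those called ran from 5.64 (SE 0.36) for Fcer1g to 6.79 (SE 0.54) for Syk, beside -0.094 for all genes. Of the lists that described the pathway only summed CPM is given, since list genes could pass the joint filter through microglia alone. In control microglia and control astrocytes, kinases and relays summed to 6391 ± 762 and 845 ± 52.7 CPM (SD, n = 6 each). ITAM receptors and adaptors came to 4030 ± 556 and 55.4 ± 29.5 CPM, and other Fc receptors to 3488 ± 313 and 90.4 ± 26.5 CPM. Inhibitors stood at 4264 ± 671 and 856 ± 87.3 CPM, and complement and phagocytic partners at 12293 ± 669 and 1069 ± 86.3 CPM.

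Between the macroglial types, Fcgr1, Fcgr2b, Fcgr3, Fcer1g, Syk and Inpp5d were lowest in astrocytes. Against oligodendrocytes, Fcgr3, Fcer1g, Syk and Inpp5d were called lower in astrocytes, with 25.7% of all genes. Fcgrt alone was called higher, with 24% of all genes. Against OPCs the same members were called lower in astrocytes, with 25.4% of all genes, and Fcgrt alone was called higher, with 17.1% of all genes. Fcgr1 and Fcgr2b were called lower in both comparisons as well. They are not counted, since neither passed the filter within astrocytes, and Fcgr1 did not within oligodendrocytes either. Fcgr4 passed within no macroglial type and was not called. The log2 difference of astrocytes over OPCs was -1.51 (SE 0.31) for Fcer1g and -1.30 (SE 0.31) for Fcgr3, and that of astrocytes over oligodendrocytes was -2.04 (SE 0.33) and -1.89 (SE 0.33). OPCs and oligodendrocytes were separated for 1 member only, Fcgrt, called higher in OPCs beside 25% of all genes. Some of these calls rested on single pairs. Without pair 3, Syk was not called between astrocytes and OPCs (adjusted p = 0.0654, edgeR) nor between astrocytes and oligodendrocytes (0.404), and Fcgr1 was not called between astrocytes and oligodendrocytes (0.225). Syk was also not called between astrocytes and oligodendrocytes without pair 5 (0.058). The call of Fcgr2b between astrocytes and OPCs (adjusted p = 0.0327, edgeR) was lost without pair 2, 4, 5 or 6 (0.0517 to 0.161).

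The trace levels moved from library to library with the microglia markers. Over the libraries of 1 cell type, the 7 members without Fcgrt correlated with the summed CPM of the 10 microglia markers by a median Pearson r of 0.904 in 11 OPC libraries (range 0.332 to 0.944), 0.714 in 12 astrocyte libraries (0.373 to 0.859) and 0.824 in 8 oligodendrocyte libraries (-0.122 to 0.934). The lowest value in each type was a weak or negative one, so not every member followed the markers. Within 12 microglia libraries the median was 0.368. These are descriptions on log2(CPM + 1), and the points share library depth. The libraries of pair 3 had the highest microglia marker sum of their group in all 3 macroglial types and both genotypes. In OPCs these sums were 1066 CPM in the control and 1054 CPM in the Rag2-/- mouse, against at most 608 and 431 CPM in the other pairs. Their border macrophage sums were highest as well, at 93.6 and 136 CPM in OPCs. The part of either cell type in the trace levels was not tested.

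By genotype, the members tested outside microglia were few and none was called. In astrocytes 0 of 5 tested members were called (0.00679% of 14725 genes), in OPCs 0 of 7 (0.00592% of 16882 genes) and in oligodendrocytes 0 of 6 (0.0% of 13802 genes). No oligodendrocyte gene at all was called by edgeR, 467 had an unadjusted p under 0.05, and DESeq2 called 205 genes there, none of them a member. DESeq2 called no member in the other types. Iftap too went uncalled by edgeR in oligodendrocytes, with 34 to 77 counts in control and 0 to 2 in Rag2-/- libraries. On simulated counts the oligodendrocyte test found 1.49% of 2-fold and 27.3% of 4-fold changes, against 71.6% and 100% in microglia. The absence of calls in oligodendrocytes therefore says little about the members. The medians of the members were 0.13 in astrocytes, 0.054 in OPCs and 0.33 in oligodendrocytes, beside 0.0014, -0.0061 and 0.0031 for all genes. Single libraries turned the sign of these medians, from -0.13 (without Rag2-/- 1) to 0.71 (without control 3) in astrocytes, from -0.70 (without Rag2-/- 3) to 0.35 (without control 3) in OPCs, and from -0.84 (without Rag2-/- 3) to 1.05 (without Rag2-/- 1) in oligodendrocytes. No member was free of overlap between genotypes, as were 0.129% of genes in astrocytes, 0.385% in OPCs and 1.97% in oligodendrocytes. In astrocytes Syk was between 0 and 4.74 CPM in controls (median 0.479) and between 0.191 and 9.32 CPM in Rag2-/- mice (median 1.33). The Rag2-/- value was the higher one in 6 of 6 pairs, 4 of them with both libraries under 2 CPM, and the log2 difference was 1.68 (SE 0.81, 95% confidence interval -0.03 to 3.38, edgeR adjusted p = 0.9998). With the pair as a block it was 1.18 (95% confidence interval 0.01 to 2.34, edgeR adjusted p = 0.9957), with an unadjusted p under 0.05 as for 3.49% of all genes. Over all alternatives it ran from 0.97, without the Rag2-/- library of pair 1, to 2.64.

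The level of Fcgrt was 44.0 ± 7.84 CPM in microglia (n = 12), 26.8 ± 7.18 in astrocytes (n = 12), 6.83 ± 3.27 in OPCs (n = 11) and 1.93 ± 1.41 in oligodendrocytes (n = 8). Astrocyte libraries ranged from 15.5 to 41.0 CPM and so reached into the microglial range of 32.1 to 57.6 CPM. Microglia and astrocytes, the neighbours at the top of this order, were not told apart by the joint edgeR fit (log2 difference 0.45, 95% confidence interval -0.04 to 0.95, adjusted p = 0.0959). Astrocytes were above OPCs by 2.39 (SE 0.27, adjusted p = 1.139e-09) and above oligodendrocytes by 3.15 (SE 0.33, adjusted p = 9.637e-11). OPCs were above oligodendrocytes by 0.76 (SE 0.31, adjusted p = 0.0452), a call that was lost without pair 1, 2, 3 or 5 (adjusted p from 0.0720 to 0.173) and with the control libraries alone (0.533). Without pair 3, Fcgr3 was the member called between these types (fitted log2 difference of OPCs over oligodendrocytes -0.61, edgeR adjusted p = 0.0446). The direction for Fcgr3 depends on the scaling, since over all libraries its mean CPM was higher in OPCs (12.9 ± 9.39) than in oligodendrocytes (10.1 ± 7.43) while the fit with TMM factors gave -0.59. Fcer1g likewise had 38.9 ± 23.96 and 28.6 ± 22.3 CPM beside a fitted difference of -0.54. With mitochondrially encoded genes taken out of the total, Fcgrt in astrocytes was 83.5% of its microglial level.

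**Figure D5:**
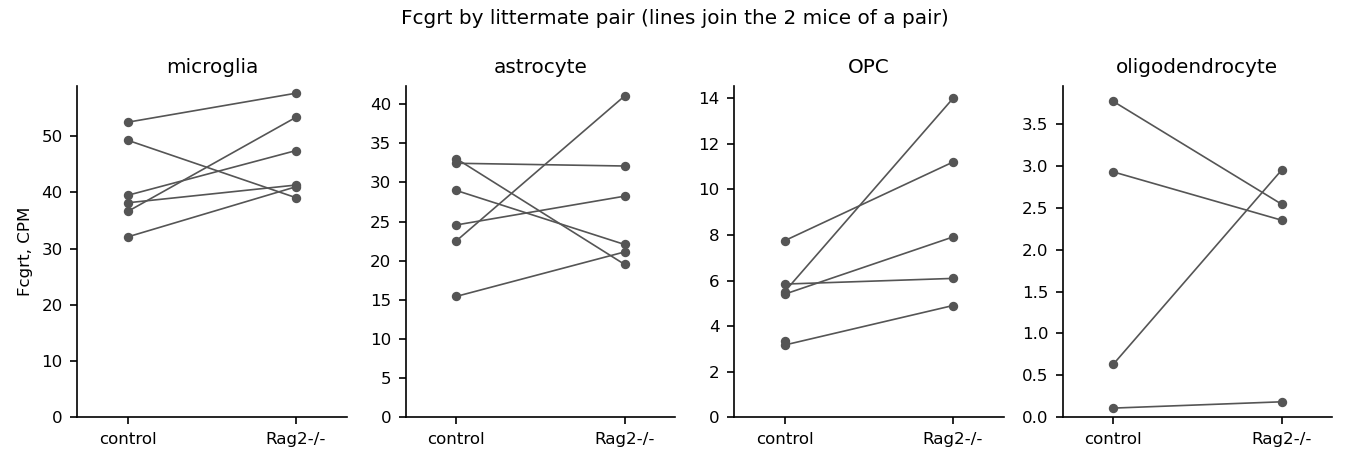
Fcgrt in CPM in each cell type, each on its own axis from 0, with lines joining the control and the Rag2-/- mouse of a pair (the OPC control of pair 5 has no partner). In OPCs all 5 lines rise, and in astrocytes and oligodendrocytes they cross.

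In OPCs the control libraries of pairs 1 to 6 held 5.52, 5.85, 7.75, 3.18, 3.35 and 5.41 CPM of Fcgrt. The Rag2-/- libraries of pairs 1, 2, 3, 4 and 6 held 14, 6.10, 11.2, 4.91 and 7.92 CPM. The Rag2-/- value was the higher one in 5 of 5 pairs, by little in pair 2, and the groups overlapped. The log2 difference was 0.82 (SE 0.32, 95% confidence interval 0.13 to 1.51). It failed the correction over all genes (edgeR adjusted p = 0.9998), with an unadjusted p under 0.05, and 4.02% of all genes tested in OPCs had an unadjusted p under 0.05. The unadjusted p was no longer under 0.05 with the pair as a block (log2 difference 0.65), with heterozygous controls alone (0.67), without the Rag2-/- library of pair 1 (0.68) and without that of pair 3 (0.74). Astrocyte markers, whose cells carry more Fcgrt, summed to 3528 ± 393 CPM in control and 4981 ± 2068 CPM in Rag2-/- OPC libraries, with the highest sum, 8392 CPM, in the Rag2-/- library of pair 1. The sum was higher in the Rag2-/- library in pair 1 (3715 CPM in the control), in pair 2 (3958 to 5125 CPM) and in pair 4 (3185 to 4604 CPM), and lower in pair 3 (3237 to 3030.0 CPM) and pair 6 (3957 to 3756 CPM). Endothelial markers summed to 60.5 ± 21.99 CPM in control and 93.4 ± 46.0 CPM in Rag2-/- OPC libraries, and mural cell and fibroblast markers to 229 ± 90.5 and 321 ± 140 CPM. The part of RNA from any of these cells in this difference was not tested. In astrocytes the log2 difference of Fcgrt by genotype was 0.11 (95% confidence interval -0.30 to 0.52), with 15.5 to 33.0 CPM in controls and 19.5 to 41.0 CPM in Rag2-/- mice.

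By sex, no member was called in any cell type, and DESeq2 called none. Genes called by edgeR were 0.0467% of all in microglia, 0.0407% in astrocytes, 0.0296% in OPCs and 0.0362% in oligodendrocytes. In microglia 1 of 8 members had an unadjusted p under 0.05, beside 3.92% of all genes. That was Fcgrt, with 39.1 to 57.6 CPM in 5 females and 32.1 to 47.4 CPM in 7 males (log2 difference of female over male 0.32, 95% confidence interval 0.05 to 0.58, edgeR adjusted p = 0.9998). Fcgr3 was at 218 to 284 CPM in females and 256 to 352 CPM in males (log2 difference -0.26, 95% confidence interval -0.52 to 0.0033, edgeR adjusted p = 0.9998). In astrocytes 2 of 5 members had an unadjusted p under 0.05, beside 6.73% of all genes. Syk was at 0 to 1.49 CPM in 5 females and 0.0981 to 9.32 CPM in 7 males (log2 difference -2.87, SE 0.89, edgeR adjusted p = 0.7155), and Inpp5d had a log2 difference of -1.47 (SE 0.62, edgeR adjusted p = 0.7155).

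Outside microglia the sign of the members' differences by sex depended on the fit. The median log2 difference of female over male was -0.90 for the members in astrocytes, -0.51 in OPCs and -1.06 in oligodendrocytes, beside -0.0027, -0.0051 and -0.030 for all genes. With the littermate pair as a block, where pair 6 alone holds both sexes, these medians were 0.84, 1.42 and 1.26. Microglia markers, without the block, had medians of -0.75, -0.54 and -0.07. Border macrophage markers, whose summed CPM in astrocytes was 2.96 to 9.92 in females and 1.96 to 38.7 in males, had medians of -1.40, -1.50 and -2.18 over the 2, 8 and 9 genes that passed the filter. Pair 3, with the highest sums of both lists in these libraries, was male. The part of these cells in the difference by sex was not tested.

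Over all 43 libraries, the genes most like each member were looked up by the Pearson r of log2(CPM + 1) among 20460 other genes, as a description over points that mostly separate microglia from the rest. Among the closest to Fcgr1 were Hvcn1 (r = 0.983) and Slfn2 (0.982), and among the closest to Fcgr3 were Ctss (0.984) and Ly86 (0.984). Fcer1g was closest to C1qb (0.990), Csf1r and Ctss, and Inpp5d to Il10ra (0.989), C1qb and Csf1r. Fcgr2b had Fcer1g and Inpp5d, its own phosphatase, as its closest genes (0.980 each), followed by C1qb. Syk was closest to the transcription factor gene Rel (0.982), with the kinase Tec also among its closest genes (0.976), and Fcgr4 to 4930556J02Rik (0.969), E230013L22Rik and Mefv. For these 7 members, 80 to 432 genes had an r above 0.95. Fcgrt had 3 such genes, Sdc4 (0.965), Pdlim4 (0.955) and Gem (0.951).

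The promoters of the co-expressed members and of Fcgrt were read for GAGGAA, the core of the purine-rich sites bound by the macrophage factor PU.1. Windows ran from 250 bases before to 50 bases after a gene's start, from RefSeq on GRCm38.p6, and both strands were searched, so that the letters appear as GAGGAA or as TTCCTC. Of 32851 such windows of all genes 28.3% held the letters. All 8 members were matched, and 5 of them held it in at least 1 window (Fcgr1, Fcgr3, Fcgr4, Syk and Inpp5d), beside 31.3% of 27025 genes. Fcgr2b, Fcer1g and Fcgrt had no match in this window. The windows of 3 members with a match and that of Fcgrt, 1 of those without, are shown 5′ to 3′ on the gene's strand, with the matched letters in capitals. Fcgr3 is from chr1:171059354-171059653 (minus strand), Fcgr4 from chr1:171018676-171018975 (plus strand), Inpp5d from chr1:87620062-87620361 (plus strand) and Fcgrt from chr7:45103773-45104072 (minus strand), all in GRCm38.p6.
Fcgr3: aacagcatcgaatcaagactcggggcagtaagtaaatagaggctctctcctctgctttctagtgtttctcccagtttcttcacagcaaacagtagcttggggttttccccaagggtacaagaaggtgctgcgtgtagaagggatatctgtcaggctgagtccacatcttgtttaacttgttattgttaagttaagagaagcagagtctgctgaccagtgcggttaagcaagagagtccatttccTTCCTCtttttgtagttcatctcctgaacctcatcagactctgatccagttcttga
Fcgr4: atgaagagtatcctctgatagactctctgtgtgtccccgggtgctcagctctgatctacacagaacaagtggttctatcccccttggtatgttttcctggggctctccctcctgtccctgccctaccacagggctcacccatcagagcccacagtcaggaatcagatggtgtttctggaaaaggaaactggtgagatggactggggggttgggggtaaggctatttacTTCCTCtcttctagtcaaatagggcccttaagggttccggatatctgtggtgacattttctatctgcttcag
Inpp5d: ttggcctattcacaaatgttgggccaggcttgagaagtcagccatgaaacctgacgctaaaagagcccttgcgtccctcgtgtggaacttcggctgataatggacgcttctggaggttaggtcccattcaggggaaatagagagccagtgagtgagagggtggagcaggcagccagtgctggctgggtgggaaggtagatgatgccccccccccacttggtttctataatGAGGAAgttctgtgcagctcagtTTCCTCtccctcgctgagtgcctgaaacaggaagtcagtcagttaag
Fcgrt: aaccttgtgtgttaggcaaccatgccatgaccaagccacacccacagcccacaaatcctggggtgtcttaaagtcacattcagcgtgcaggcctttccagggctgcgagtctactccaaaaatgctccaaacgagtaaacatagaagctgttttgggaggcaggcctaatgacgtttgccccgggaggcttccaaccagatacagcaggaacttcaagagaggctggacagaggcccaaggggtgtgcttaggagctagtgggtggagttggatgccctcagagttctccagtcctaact
Inpp5d held 2 matches, on opposite strands, and Fcgr3 and Fcgr4 held 1 each. These letters are a description of the sequence, and binding was not measured.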

How the data were processed

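The authors amplified cDNA from the RNA of each immunopanned sample, sequenced read pairs of 50 bases, aligned them with STAR 2.7.8a to GRCm39 with the Ensembl annotation and counted them per gene with HTSeq. They deposited raw counts per gene, 1 table for each library, without correction for depth or gene length. The counting mode and strand setting were not given in the sources used here. The 5 HTSeq sums of read pairs on no gene held 33.5% to 52.0% of a library and entered neither library sizes nor tests. Symbols and GRCm39 coordinates came from GENCODE M39, which held 54749 of 55416 identifiers. Promoter windows came from RefSeq on GRCm38.p6, a build used for sequence only.

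Here, CPM is the count divided by all counts on genes of the library, and per-kilobase levels use the union of a gene's exons. Differences were tested with edgeR 4.0.16 (TMM factors, filterByExpr, whose count and total minimums were 10 and 15, quasi-likelihood test, R 4.3.3) in each cell type with terms for sex and genotype, and for cell types in 1 fit of the 8 groups of cell type and genotype with sex. Adjusted p-values are Benjamini-Hochberg over all genes tested, the threshold was 0.05, and tests were two-sided. The scripts were tested on simulated data. The members, gene lists and comparisons were chosen with earlier results of these data known. The genes named are the 8 members, list genes called by genotype or sex, the 2 highest of each list in microglia, list genes with an unadjusted p under 0.05 by genotype in microglia, antibody chain and B cell genes with over 3 counts in any library, the 3 genes most like each member, and Rag2 and Iftap. Igkc, called for the difference of effects, and Sall1 were singled out after their values were seen. Some genes that the rule would name are not reported here.

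The labels number the pairs and the study describes them as littermates, so the numbers pair the mice. Deviations from group means correlated on average by 0.099 in microglia, 0.154 in astrocytes, 0.115 in OPCs and 0.123 in oligodendrocytes for libraries of 1 pair, against -0.020, -0.030, -0.023 and -0.041 between pairs. No 2 libraries of a group agreed within sampling noise (smallest chi-square 7.45 per gene). Each library is from 1 mouse, and the 4 cell types of a mouse share that mouse, which the joint fit did not model. The alternative with the pair as a block joins both mice of a pair and does not model the single mouse either. Alternatives were DESeq2 1.42.0, its size factors, other filters on low counts, the pair as a block, no sex term, heterozygous controls alone, each genotype alone, and leaving out each library or pair.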

Additional observations from a re-analysis of the deposited data

Results flagged for a closer look

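In 15 of 63 groups of 4 to 6 libraries, the highest library lay farther from the others than Dixon's limit allows. For independent, normally distributed values about 1 in 20 would be flagged. These groups are not independent, since the genes were read in the same libraries and a single high library can raise several flags. All 15 flags were in macroglial libraries, none was from microglia, none concerned Fcgrt, and 13 of the 15 were of pair 3. The flags for Fcgr4 have every other library of the group at 0, where any count at all is flagged, although both are counted in the 15 and the 13.

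In OPCs the control library of pair 3 was apart for Fcgr1 (7.66 CPM, others at most 2.51) and Fcgr3 (30.7 CPM, others at most 13.8). The Rag2-/- OPC library of pair 3 was apart for Fcer1g (83.8 CPM, others at most 34.6), Inpp5d (35.0 CPM, others at most 13.8), Fcgr3 (31.7 CPM, others at most 9.60), Syk (23.6 CPM, others at most 5.12) and Fcgr2b (13.6 CPM, others at most 4.14). In astrocytes the control library of pair 3 was apart for Inpp5d (16 CPM), Fcgr3 (10.5 CPM), Fcgr2b (8.58 CPM) and Fcgr4 (0.742 CPM, from 7 counts), and the Rag2-/- library of pair 3 for Fcgr4 (0.0861 CPM, from 1 count). The Rag2-/- oligodendrocyte library of pair 3 was apart for Fcgr1 (4.29 CPM, others at most 0.367). The 2 flags outside pair 3 were in astrocytes of pair 1, for Syk in the control (4.74 CPM) and for Fcgr3 in the Rag2-/- mouse (8.85 CPM).

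Microglia markers summed to 317 and 260.2 CPM in the control and Rag2-/- astrocyte libraries of pair 3, against at most 199.5 and 226 CPM in the other pairs, and to 805 and 706.5 CPM in its oligodendrocyte libraries, against at most 375 and 333 CPM. Border macrophage markers summed to 38.7 and 29.3 CPM in its astrocyte libraries, against at most 19.5 and 11.2 CPM. The part of these cells in the high values was not tested.

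The genotype effect on Igkc differed between microglia and the macroglial types (log2 difference of effects -8.51, edgeR, adjusted p = 0.0052), as 5 of 6 control microglia libraries held Igkc counts and the Rag2-/- microglia libraries held at most 1 count, while oligodendrocyte libraries of both genotypes held 73 to 352 counts. No gene was called in this test without pair 1, 2, 4 or 5.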

How the results depend on the processing

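No member was called by genotype in any cell type under any alternative. Signs changed in 12 of 182 values by genotype under other settings and in 39 of 281 with a library left out, in no case where a member was called. With the littermate pair as a replicate block, no member was called by genotype or sex. Then 3 of 26 signs changed by genotype and 17 of 26 by sex, where the block leaves only pair 6 with both sexes. The members counted above as higher in microglia stayed called under every alternative. The main fit called 34.8% of all genes higher against oligodendrocytes, 30.8% against OPCs and 33.5% against astrocytes. With no filter on low counts, 1 member, Syk, was called by sex in astrocytes (adjusted p = 0.00507, 0.928 at most over the alternatives) and 5 members between OPCs and oligodendrocytes, beside 118 of 33626 and 9388 of 39266 genes. The count of members called between OPCs and oligodendrocytes, 1 as reported, was 0 with DESeq2's size factors, with a mean count of at least 10 and with control libraries alone, and 0 to 1 with a pair left out. Size factors moved the median of all genes between astrocytes and OPCs from -0.14 to -0.037. The median of the members, with those that failed the filter within astrocytes included, was then -1.40. Fcgrt in astrocytes was 83.5% of its microglial level without mitochondrial genes, and 13 of the 24 most alike genes were among the closest with a pseudocount of 0.1. Genes called were 1, 1, 1 and 0 by genotype and 7, 6, 5 and 5 by sex in microglia, astrocytes, OPCs and oligodendrocytes, 2 for the difference of effects, 9095 between astrocytes and OPCs and 8704 between OPCs and oligodendrocytes. They moved by over 1.5 times with DESeq2 by genotype (microglia 3, OPCs 5, oligodendrocytes 205) and sex (microglia 11, astrocytes 19, OPCs 13, oligodendrocytes 432) and for the difference of effects (46), with no filter (genotype 9, 30, 90 and 14 and sex 25, 118, 72 and 99 in microglia, astrocytes, OPCs and oligodendrocytes, difference of effects 60), with a mean count of at least 10 (microglia 3 by genotype), with the replicate block (sex in astrocytes 19 and oligodendrocytes 1, difference of effects 1), and between astrocytes and OPCs (5997 in controls alone, 4970 in Rag2-/- alone) and OPCs and oligodendrocytes (5194 and 5402). With a library or pair left out they were 1 to 2 by genotype in microglia, as few as 3 by sex in oligodendrocytes and 0 to 2 for the difference of effects. Called members lost their call between astrocytes and OPCs for Fcgr2b with DESeq2 (adjusted p = 0.0507) and in either genotype alone (0.110 and 0.299) and for Syk in Rag2-/- alone (0.173), and between astrocytes and oligodendrocytes for Fcgr1 (0.0797) and Syk (0.860) in Rag2-/- alone and Fcgr2b in controls alone (0.136). The cause was not tested. Members at a few counts per library are limited by depth, and 3 counts stood for up to 0.462 CPM.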

Other observations

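Antibody-chain RNA was found in oligodendrocyte libraries of both genotypes. There Igkc was at 18.3 ± 9.72 CPM in controls and 19.9 ± 7.98 CPM in Rag2-/- mice (SD, n = 4 each) and was counted in all 8 libraries. Ighg3, a heavy chain of immunoglobulin G, was at 20.1 ± 9.42 and 35.8 ± 17.6 CPM in the same libraries (log2 difference 0.75, SE 0.52, edgeR adjusted p = 0.9979). No test of these chains against the other types is given, since genes could pass the filter of the joint fit through oligodendrocytes alone. Oligodendrocytes alone were harvested from plates prepared with the GalC hybridoma, so that the cell type and this step cannot be told apart. Jchain, which joins antibody units, had 14 to 33 counts in control and 2 to 36 counts in Rag2-/- oligodendrocyte libraries. Among the rarer chains in oligodendrocytes, Ighg1 reached 19 counts, Ighg2b 45, Ighg2c 39, Iglc1 64 and Iglc3 7 in a library. Ighe reached 26 counts in an OPC library and 22 in an astrocyte library, and Igha 15 in an astrocyte library.

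The B cell genes Cd79a and Cd79b, partners of the B cell receptor that also signal through ITAMs, were counted in all 12 microglia libraries at 0.596 ± 0.340 and 4.08 ± 1.80 CPM in controls and 0.632 ± 0.480 and 4.15 ± 3.61 CPM in Rag2-/- mice (n = 6 each). Pax5 and Blk reached 12 and 6 counts in a control microglia library and did not exceed 3 counts in any Rag2-/- microglia library. Ms4a1 reached 18 counts in an oligodendrocyte library and Fcer2a, a receptor for immunoglobulin E, 84 counts in an OPC library. Cr2, the complement receptor of B cells, was highest in astrocytes at 3.24 ± 1.21 CPM in controls and 4.22 ± 1.81 CPM in Rag2-/- mice.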
